A study of Mus musculus with 36 samples.

Results

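The liver of mice drinking oil palm phenolics was compared between 2 times, 1 week and 18 hours, with 3 arrays at each. These 6 arrays were chosen from the labels alone, out of 36 in the series, and each of the 23982 probes of the deposited value table was tested. Oil palm phenolics (OPP) are a water-soluble polyphenol extract of the oil palm, offered here as drinks at 1500 ppm gallic acid equivalents, and the other mice drank distilled water. All mice of the 12 groups were male BALB/c animals on standard chow that carried J558 cells, a mouse myeloma line, injected under the skin of the back of the neck. The mice were 6 weeks old at 18 hours, 7 weeks old at 1 week and 10 weeks old at 4 weeks, so age and time cannot be told apart. No sample analysed here came from a mouse without myeloma cells or from a time before the injection, and the treatment text of every sample speaks of 4 weeks after inoculation, so what the times count from is not settled by the labels. Whether a replicate was 1 mouse or a pool is not stated, and the p-values measure only the spread between arrays. The 6 OPP arrays were fitted together with the 12 other liver arrays, which are the OPP mice at 4 weeks and the water mice at 18 hours, 1 week and 4 weeks.

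The liver answers injury and inflammation with the acute phase response: cytokines, above all interleukin-6 and interleukin-1, act on hepatocytes, which then raise serum amyloid A, haptoglobin, fibrinogen and metal-binding proteins. The same cytokines are known to lower many enzymes of drug, bile acid and fatty acid metabolism. Genes of lipid synthesis, heat shock and the circadian clock also follow feeding, temperature and the hour of the day in this organ, and the hour of collection was not given.

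The values are linear ratios of a probe to its own median over the 18 liver arrays, so a ratio of 1 is the middle of all liver arrays and nothing is known of the absolute level of a gene. Differences are 1 week minus 18 hours in log2 units. A value printed with an SE is such a difference or, where the drinks are compared, the OPP difference minus the water difference. SE is the standard error that limma fitted. A probe was called where its adjusted p (Benjamini-Hochberg, all probes tested) was under 0.05. The 18 arrays had median log2 ratios from -0.034 to 0.038. In OPP mice 4141 probes were called, 17.3% of those tested, of which 3515 (14.7%) were higher and 626 (2.61%) lower at 1 week. Quantile normalisation of the arrays left 2601 calls, 1847 higher and 754 lower. Leaving out replicate 3 of the OPP group at 1 week left 2549 calls, and leaving out replicate 1 of that group gave 4732. Without regard to any test, the groups did not overlap in 30.2% of probes and 32.9% of genes. The rises were many and mostly small and the largest differences were falls: among called probes 259 rose and 101 fell by more than 1 on the log2 scale, while 20 rose and 23 fell by more than 2. With each gene standing on its probe of highest SD, 20.2% of 14739 genes were called, 17.1% higher and 3.07% lower, and the median difference over all genes was 0.04. Every count of list members that rose or fell in OPP mice is to be read beside these shares. Each named call was refitted under 14 alternatives in OPP mice, and one printed without a count of lost fits was lost in at most 3 of them.

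Acute phase proteins had the lowest median difference of the 33 functional lists. Of 27 measured members 22 were lower and 1 was higher at 1 week, with a median difference of -1.24, beside 3.07% of all genes lower. Saa3, a serum amyloid A made by liver and by macrophages, had ratios of 95.5, 182 and 220 at 18 hours in replicates 1, 2 and 3. At 1 week its ratios were 0.628, 0.746 and 0.701. All 3 early arrays stood far above all 3 later ones, a fall of 227-fold with a log2 difference of -7.83 (SE 0.40, adjusted p 1.12e-09). Saa2, whose protein rides on high-density lipoprotein, went from 95, 106 and 104 to 0.471, 0.908 and 0.737, a difference of -7.22 (SE 0.52, adjusted p 8.42e-08). Lcn2, lipocalin 2, which withholds iron from bacteria by binding their siderophores, went from 67.2, 72.4 and 82.6 to 0.522, 0.725 and 0.971, a difference of -6.69 (SE 0.44, adjusted p 5.01e-08). Neither gene had an early array that overlapped a later one. Saa1 had closely spaced ratios of 10.6, 10.2 and 11.4 at 18 hours and 0.435, 0.808 and 0.599 at 1 week, and its difference of -4.17 (SE 0.52, adjusted p 3e-05) was smaller than that of Saa2. Saa1 and Saa2 are near-identical in sequence, so their probes may share signal, and whether the early signals reached the ceiling of the scanner cannot be read from ratios.

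The other members that fell did so by less. Orm2, an orosomucoid that carries drugs and hormones in plasma, had ratios of 4.75, 4.66 and 4.97 at 18 hours and 0.862, 1.25 and 1.09 at 1 week, a difference of -2.18 (SE 0.15, adjusted p 6.69e-08). Lbp, which hands bacterial lipopolysaccharide to Cd14, fell by 2.20 on the log2 scale, and Cd14 itself had -1.02 (SE 0.17, adjusted p 0.000338). Hp, which binds free haemoglobin, had -2.02 (SE 0.21, adjusted p 4.9e-06), although its second probe gave -0.53. Apcs, the serum amyloid P component that is the main acute phase pentraxin of mice, gave -1.98 (SE 0.21, adjusted p 6.23e-06), whereas Crp, a pentraxin that rises little in mice, gave -0.01 (SE 0.12, adjusted p 0.988). Cp, the copper-carrying ferroxidase, had -1.33 (SE 0.15, adjusted p 7.52e-06). The fibrinogen chains Fgg and Fgb, which form the clot, were called at -1.11 and -0.85. Fga, the third fibrinogen chain, Hamp and Il1rn were not called, and neither was Crp. The 1 riser of the list was Agt, the precursor of angiotensin, at 0.52 (SE 0.16, adjusted p 0.0348), a call lost in 7 of 14 alternative fits. In OPP mice at 4 weeks the list's array medians lay between -0.26 and 0.07, beside -0.24 to 0.09 at 1 week and 1.13 to 1.33 at 18 hours.

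**Figure D1:**
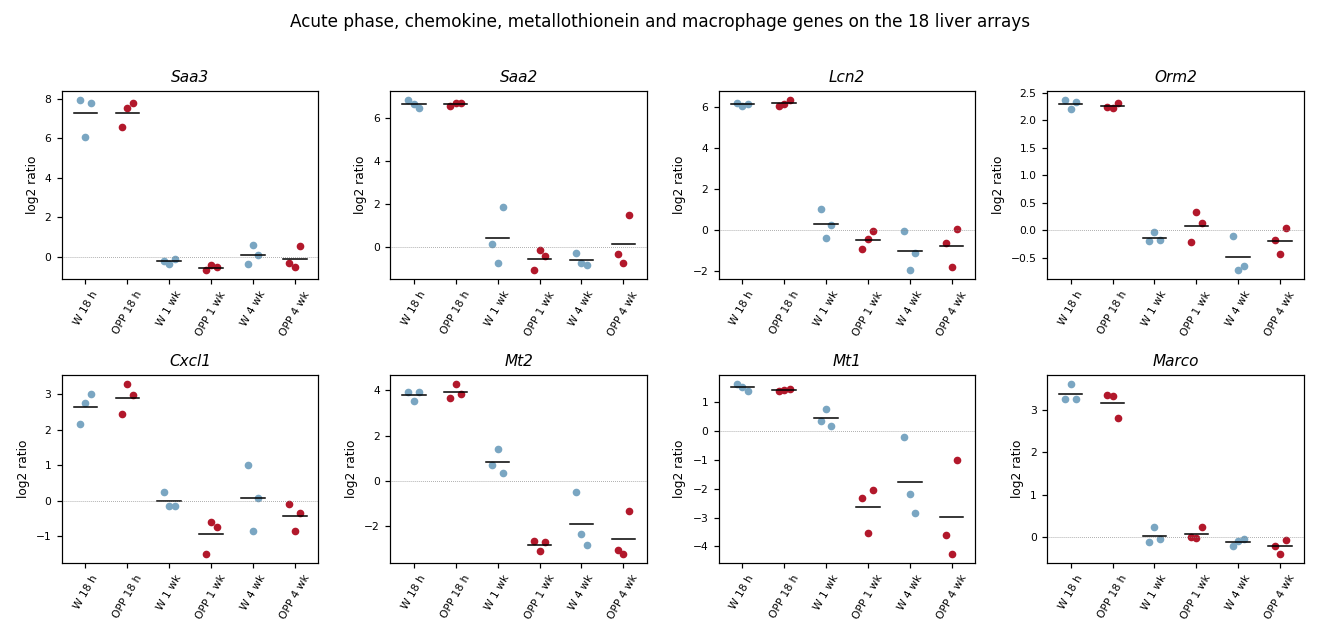
Log2 ratio to the liver median (vertical axis) of 8 genes on each of the 18 liver arrays, by drink and time; W is water, points are arrays, bars are group means and the dotted line is a ratio of 1. The 3 OPP arrays at 18 hours lie above the 3 at 1 week in every panel, and Mt2 and Mt1 lie lower in OPP than in water mice at 1 week.

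Some chemokines and feedback genes of inflammatory signalling were lower at 1 week, while most were not called. Of 20 measured chemokines 5 fell, 1 rose and 14 were not called, with a list median of -0.10, beside 3.07% of all genes lower. Cxcl1, which calls neutrophils, had ratios of 5.39, 9.8 and 7.8 at 18 hours and 0.352, 0.662 and 0.60 at 1 week, all early arrays above all later ones, with a difference of -3.84 (SE 0.36, adjusted p 1.66e-06). Cxcl13, which attracts B cells, had -1.77 (SE 0.19, adjusted p 6.52e-06) and Cxcl9, an interferon-gamma target that attracts T cells, had -1.66 (SE 0.47, adjusted p 0.0198), the latter call being lost in 5 of 14 alternative fits. Ccl24, a ligand of the eosinophil receptor Ccr3, was the 1 riser at 0.89 (SE 0.11, adjusted p 1.86e-05). Among 17 NF-kB and STAT3 feedback genes 5 fell, 0 rose and 12 were not called. Socs3, the brake on STAT3 signalling, had -1.61 (SE 0.34, adjusted p 0.00247), and Nfkbiz, an atypical IkB protein induced by interleukin-1, had -1.23 (SE 0.13, adjusted p 3.87e-06). Icam1, the adhesion molecule, fell with -0.59, Nfkbia, the classical IkB, with -0.56 and Tnfaip3, the A20 brake on NF-kB, with -0.43. Ubd, a ubiquitin-like protein induced by inflammatory cytokines, was among the 15 largest falls at -2.24 (SE 0.21, adjusted p 1.56e-06).

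The promoter of Cxcl1 is shown because NF-kB is known to drive this gene and because it was the chemokine that fell most. It is taken from RefSeq, build GRCm38.p6, plus strand, chr5:90890995-90891294, 250 bases before to 50 after the start, with capitals for each match, on either strand, to GGG, any 2 bases, TT, any base and CC.
Cxcl1: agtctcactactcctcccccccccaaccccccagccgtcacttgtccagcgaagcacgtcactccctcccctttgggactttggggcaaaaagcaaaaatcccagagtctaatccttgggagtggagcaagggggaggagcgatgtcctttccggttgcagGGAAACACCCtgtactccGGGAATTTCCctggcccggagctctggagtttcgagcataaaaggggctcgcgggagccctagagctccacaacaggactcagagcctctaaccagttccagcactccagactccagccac
The 2 matches begin 89 and 71 bases before the start and do not overlap. Such a match was present in 5.48% of 27025 genes with a window of this length, and at least 2 matches in 0.352%. Of 27 acute phase members 22 had a window and 3 of these held a match, namely Serpina3n, Steap4 and Il1rn, which is 13.6%. The windows of Saa1, Saa2, Saa3 and Lcn2 held none, which says only that these letters are not in these 300 bases.

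Metallothioneins, small cysteine-rich proteins that bind zinc and copper and are induced by metals, glucocorticoids and interleukin-6, showed a fall that was larger in OPP than in water mice for Mt2. The ratios of Mt2 were 12.6, 19.5 and 14.1 at 18 hours and 0.157, 0.118 and 0.153 at 1 week in OPP mice, a 107-fold fall with a difference of -6.74 (SE 0.49, adjusted p 8.42e-08). In water mice they were 15.4, 11.6 and 15.3 at 18 hours and 1.61, 2.62 and 1.29 at 1 week. The 18 hours groups overlapped between the drinks and the 1 week groups did not, every OPP array at 1 week lying under every water array of that time. At 4 weeks the ratios were 0.119, 0.106 and 0.398 in OPP mice and 0.711, 0.194 and 0.141 in water mice, which overlapped. The OPP difference minus the water difference was -3.75 (SE 0.69, adjusted p 0.0317), a call that 9 of 20 alternative fits lost. Mt1 had ratios of 2.61, 2.66 and 2.76 at 18 hours and 0.199, 0.0869 and 0.24 at 1 week, a difference of -4.06 (SE 0.65, adjusted p 0.000243). Its difference from water, -2.99 (SE 0.91, adjusted p 0.183), did not pass. Mt1 and Mt2 are close in sequence, so their probes may share signal.

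The promoters of the metallothionein pair are shown because the metal response element is their best known control site, bound by the zinc-sensing factor Mtf1. Both are plus strand, RefSeq build GRCm38.p6, chr8:94172368-94172667 for Mt2 and chr8:94178839-94179138 for Mt1, with matches to TGCACNC or TGCGCNC on either strand in capitals.
Mt2: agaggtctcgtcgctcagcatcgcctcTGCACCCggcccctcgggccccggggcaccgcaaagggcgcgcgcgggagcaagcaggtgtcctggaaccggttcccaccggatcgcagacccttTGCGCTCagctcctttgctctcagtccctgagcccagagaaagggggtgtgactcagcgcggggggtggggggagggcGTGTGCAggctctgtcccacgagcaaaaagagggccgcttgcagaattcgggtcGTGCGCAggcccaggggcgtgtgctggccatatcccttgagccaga
Mt1: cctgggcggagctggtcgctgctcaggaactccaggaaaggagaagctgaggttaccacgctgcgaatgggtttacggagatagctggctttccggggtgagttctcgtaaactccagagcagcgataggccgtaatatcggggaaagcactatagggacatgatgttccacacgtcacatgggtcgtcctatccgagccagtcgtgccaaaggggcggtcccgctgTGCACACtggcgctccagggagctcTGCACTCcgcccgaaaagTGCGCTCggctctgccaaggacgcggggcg
Mt2 held 4 matches and Mt1 held 3, none overlapping another. At least 1 match was present in 28.2% of genes and at least 2 in 8.07%.

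Other genes of metal and haem handling went both ways: of 16 measured members 5 rose and 4 fell. Hmox1, which opens the haem ring, fell with -0.74 (SE 0.12, adjusted p 0.000257) and Slc39a14, the zinc and iron importer induced by interleukin-6, with -0.55 (SE 0.12, adjusted p 0.00371). Alas1, the first enzyme of haem synthesis in liver, rose with 1.12 (SE 0.30, adjusted p 0.0131), as did its erythroid counterpart Alas2 with 0.75 (SE 0.16, adjusted p 0.0032). Tfrc, the transferrin receptor, was called at 0.64 (SE 0.20, adjusted p 0.032), a call lost in 8 of 14 alternative fits. Hamp2, a hepcidin, was among the 15 largest rises: its ratios were 0.245, 0.214 and 0.391 at 18 hours and 0.582, 2.1 and 1.92 at 1 week, a difference of 2.28 (SE 0.44, adjusted p 0.0012). It is close in sequence to Hamp, the hepcidin that limits iron release, and Hamp was not called.

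Macrophage markers moved in both directions. Marco, a scavenger receptor of macrophages, had ratios of 10.2, 10.1 and 7.0 at 18 hours and 1.0, 0.997 and 1.18 at 1 week, a difference of -3.08 (SE 0.14, adjusted p 3.46e-10). Adgre1, which encodes a surface antigen of macrophages, fell with -1.63 (SE 0.15, adjusted p 1.66e-06), but its other probe gave -0.30. Lyz2, lysozyme, fell with -1.05 (SE 0.15, adjusted p 0.000112), its other probe giving -0.19. Clec4f and Vsig4, which mark Kupffer cells, the resident macrophages of liver, rose. Marco, Adgre1 and Lyz2 stood in the same list, of Kupffer cells and macrophages, so the list does not separate these cells. Clec4f had ratios of 0.214, 0.244 and 0.284 at 18 hours and 1.08, 0.954 and 1.21 at 1 week, a difference of 2.13 (SE 0.15, adjusted p 6.94e-08), and Vsig4 rose with 1.19 (SE 0.15, adjusted p 2.55e-05). In whole liver, fewer cells of a type and less RNA per cell cannot be told apart. Of 12 markers in this list 2 rose and 3 fell, or 16.7% and 25%, beside 17.1% and 3.07% of all genes. The other 7, Timd4, Cd5l, C1qa, C1qb, C1qc, Cd163 and Msr1, were not called. The array medians of the list overlapped, from 0.01 to 0.04 at 18 hours and from -0.10 to 0.21 at 1 week.

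Neutrophil markers were lower at 1 week in 4 of 13, the others not being called. S100a8, a subunit of calprotectin, had ratios of 3.47, 4.6 and 7.02 at 18 hours and 1.1, 1.01 and 1.59 at 1 week, a 3.99-fold fall (adjusted p 1.14e-05). Its partner S100a9 fell with -1.86, Retnlg with -0.46, and the list also holds Lcn2, described above. Prtn3, the neutrophil serine protease proteinase 3, was among the 15 largest falls at -2.59 (SE 0.17, adjusted p 5.01e-08). The array medians of the neutrophil list were 0.10 to 0.20 at 18 hours and -0.02 to 0.03 at 1 week, and the part of these cells in the falls of Lcn2, Saa3 or Cxcl1 was not tested. Few lymphocyte markers were called: 0 of 9 B and plasma cell markers and 1 of 13 T and NK markers were called, the latter being Gzma, granzyme A, at -0.28 (SE 0.09, adjusted p 0.0432), a call lost in 6 of 14 alternative fits.

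Of the remaining large falls, Crybb3, a lens crystallin with no settled role in liver, had ratios of 10.9, 9.16 and 19.5 at 18 hours and 0.877, 1.01 and 1.11 at 1 week, a difference of -3.65 (SE 0.21, adjusted p 8.75e-09). Nnmt, which methylates nicotinamide, fell with -2.94 (SE 0.47, adjusted p 0.000243). Tnfrsf8, the CD30 receptor, had -2.80 (SE 0.12, adjusted p 9.37e-11) on 1 probe and -0.21 on another, so the fall depends on the probe. Fabp3, a fatty acid carrier of muscle and brown fat, was called at -3.06 (SE 1.00, adjusted p 0.0418), a call lost in 6 of 14 alternative fits. Its ratios were 3.92, 6.72 and 18.5 at 18 hours and 1.35, 0.782 and 0.803 at 1 week. Ucp1, the uncoupling protein of brown fat, moved beside it with 5.57, 19.4 and 8.04 at 18 hours and 1.03, 0.733 and 0.855 at 1 week, and Adipoq, adiponectin, had 2.06, 2.6 and 1.37 and 0.737, 0.869 and 0.826. In water mice Ucp1 had 4.76, 0.971 and 0.99 at 18 hours and 0.984, 0.872 and 83.5 at 1 week, and Fabp3 reached 0.791, 1.02 and 40.2 in the latter arrays. None of the 9 adipocyte markers was called in OPP mice. The array medians of that list were 0.02 to 0.22 at 18 hours and -0.08 to 0.00 at 1 week, and their part in the Fabp3 difference was not tested.

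Of 16 clotting genes other than fibrinogen, 8 rose and 1 fell at 1 week. Klkb1, plasma prekallikrein, had 0.81 (SE 0.15, adjusted p 0.000765), F5, the cofactor that speeds thrombin formation, had 0.63 (SE 0.13, adjusted p 0.00181), F10, which cleaves prothrombin, had 0.46 (SE 0.10, adjusted p 0.00232), and F13b, the carrier subunit of the clot-stabilising factor, had 0.39 (SE 0.09, adjusted p 0.0053). F11, which activates factor IX, was the 1 to fall, at -0.59 (SE 0.15, adjusted p 0.0088). In the complement list 2 of 18 rose and 0 fell, beside 17.1% of all genes higher. C6, a part of the membrane attack complex, had 1.12 (SE 0.28, adjusted p 0.00767), but its other probe gave 0.09. C4b of the classical pathway had 0.53 (SE 0.15, adjusted p 0.0213), with other probes at 0.18, 0.46 and 0.14, and its call was lost in 6 of 14 alternative fits, quantile normalisation among them. Cfb, factor B of the alternative pathway, was at -0.36 (SE 0.13, adjusted p 0.0665).

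Enzymes of drug metabolism were higher at 1 week. Of 38 cytochrome P450 genes 22 rose and 1 fell, with a median difference of 0.67, beside 17.1% of all genes higher. Cyp2c37, which oxidises arachidonic acid and drugs, had ratios of 0.25, 0.182 and 0.23 at 18 hours and 1.16, 1.02 and 1.4 at 1 week. The early arrays were all far under the later ones, a 5.41-fold rise with a difference of 2.44 (SE 0.18, adjusted p 8.42e-08). Cyp2c50 gave 2.44 (SE 0.24, adjusted p 2.21e-06) and Cyp2c54 gave 2.24 (SE 0.21, adjusted p 1.56e-06). Genes of the Cyp2c family are near copies of each other, so the share of each is uncertain, and the second probes of Cyp2c37 and Cyp2c50 gave smaller rises of 0.94 and 1.78. Cyp1a2, which clears caffeine, had 1.73 (SE 0.23, adjusted p 4.74e-05), Cyp2f2, which activates naphthalene, had 1.80 (SE 0.20, adjusted p 1.09e-05), and Cyp2d10 had 1.21 (SE 0.12, adjusted p 3.97e-06). The 1 that fell was Cyp3a13, at -1.06 (SE 0.14, adjusted p 4.21e-05), although 1 of its other probes gave -0.19. Aox3, an aldehyde oxidase of liver, was also among the 15 largest rises at 2.43 (SE 0.29, adjusted p 1.85e-05).

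Glutathione and NRF2 genes rose in 21 of 32 members and fell in 1, with a median of 0.68. Glutathione S-transferases join glutathione to reactive compounds. Gsta2 had ratios of 0.995, 0.246 and 0.25 at 18 hours and 2.24, 1.85 and 1.73 at 1 week, a difference of 2.29 (SE 0.44, adjusted p 0.00109), with 1.62 on its other probe. Replicate 1 stood above the other early arrays and under every later one. Gsta1, near-identical to it, gave 1.86 (SE 0.37, adjusted p 0.0014). Gsta3 went from 0.492, 0.515 and 0.517 to 1.08, 1.18 and 1.16, a difference of 1.16 (SE 0.14, adjusted p 2.56e-05). Gstt1 had 1.18 (SE 0.13, adjusted p 6.84e-06) and Gsta4, which clears lipid aldehydes, had 1.40 (SE 0.20, adjusted p 8.62e-05). Gsr, glutathione reductase, had 1.01 (SE 0.13, adjusted p 4.91e-05), Gclc, the catalytic subunit of the first step of glutathione synthesis, had 1.10 (SE 0.19, adjusted p 0.000492), and Nfe2l2, the factor NRF2 itself, had 0.66 (SE 0.12, adjusted p 0.000742) with another probe at -0.13. Sod2, the mitochondrial superoxide dismutase, was the 1 that fell, at -0.25 (SE 0.08, adjusted p 0.0368), a call lost in 6 of 14 alternative fits.

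Fatty acid synthesis genes were higher at 1 week, 17 of 22 members rising and 0 falling, with a median of 0.94. Fasn, the fatty acid synthase, had ratios of 0.41, 0.457 and 0.509 at 18 hours and 1.62, 3.21 and 3.96 at 1 week, a 6.01-fold rise with a difference of 2.59 (SE 0.45, adjusted p 0.000475). Elovl6, which lengthens palmitate, went from 0.495, 0.443 and 0.516 to 1.2, 2.24 and 2.25, a difference of 1.91 (SE 0.24, adjusted p 2.73e-05). In both genes replicate 1 was the lowest of the later arrays, and it stood above every early array. Elovl5 and Fads2, which lengthen and desaturate polyunsaturated fatty acids, had 1.57 (SE 0.13, adjusted p 7.35e-07) and 0.97 (SE 0.13, adjusted p 5.11e-05). Acly, which makes cytosolic acetyl-CoA, had 1.32 (SE 0.28, adjusted p 0.00232) and Me1, malic enzyme, a source of NADPH, had 1.23 (SE 0.23, adjusted p 0.000944). Aacs, which activates acetoacetate for lipid synthesis, was among the largest rises at 2.25 (SE 0.47, adjusted p 0.00212), and Pnpla3, a lipase that follows lipid synthesis, had 0.43 (SE 0.13, adjusted p 0.0231), a call lost in 6 of 14 alternative fits.

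Genes of fatty acid oxidation and PPAR-alpha were higher too, 17 of 30 rising and 1 falling. Cyp4a10, an omega-hydroxylase and classical PPAR-alpha target, had ratios of 0.464, 0.571 and 0.718 at 18 hours and 4.42, 2.14 and 3.5 at 1 week, a difference of 2.48 (SE 0.43, adjusted p 0.000507). Ehhadh, the peroxisomal bifunctional enzyme, went from 0.471, 0.415 and 0.429 to 0.983, 1.3 and 1.51, a difference of 1.51 (SE 0.16, adjusted p 4.81e-06). Cyp4a12a, a male-biased omega-hydroxylase, had 1.69 (SE 0.15, adjusted p 9.46e-07), Acaa2, the mitochondrial thiolase, 1.14 (SE 0.13, adjusted p 9.24e-06), and Etfdh, which passes electrons from oxidation to the respiratory chain, 0.94 (SE 0.12, adjusted p 4.21e-05). Slc25a20, the carnitine carrier of mitochondria, was the 1 that fell, at -0.48 (SE 0.10, adjusted p 0.00276).

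**Figure D2:**
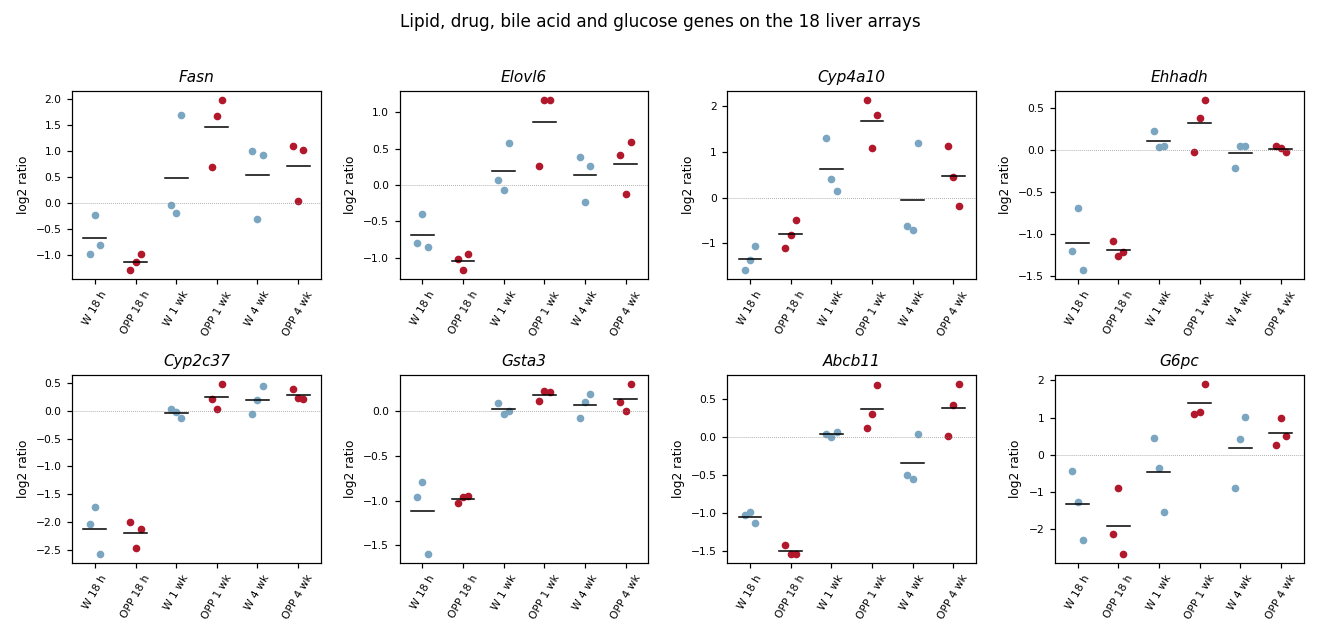
Log2 ratio to the liver median (vertical axis) of 8 metabolic genes on the 18 liver arrays by drink and time; W is water, points are arrays and bars are group means. All 3 OPP arrays at 18 hours lie under the 3 OPP arrays at 1 week for each gene.

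Bile acid genes rose in 11 of 20 members and fell in 0. Abcb11, the bile salt export pump, had ratios of 0.374, 0.343 and 0.344 at 18 hours and 1.08, 1.23 and 1.6 at 1 week, a difference of 1.86 (SE 0.16, adjusted p 9.42e-07). Abcb4, which carries phospholipid into bile, had 1.14 (SE 0.14, adjusted p 2.42e-05), and Slc27a5, which activates bile acids for conjugation, had 0.88 (SE 0.12, adjusted p 5.59e-05). Among synthesis enzymes, Cyp8b1, which makes cholic acid, had 1.53 (SE 0.25, adjusted p 0.000252), Cyp27a1, the sterol 27-hydroxylase, 1.06 (SE 0.14, adjusted p 3.66e-05) and Cyp7b1, of the alternative pathway, 1.63 (SE 0.42, adjusted p 0.0104). Cyp7a1, the rate-limiting enzyme of the classical pathway, was not called at -0.26 (SE 0.47, adjusted p 0.803), with ratios of 0.701, 1.13 and 0.519 at 18 hours and 0.349, 0.939 and 0.723 at 1 week. Apolipoprotein genes rose in 6 of 15, among them Mttp, which loads lipid onto apolipoprotein B, at 1.13 (SE 0.13, adjusted p 1.05e-05). Aqp8, a water channel of the canalicular membrane, was among the largest rises at 2.33 (SE 0.32, adjusted p 7.82e-05).

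Cholesterol synthesis genes rose in 4 of 16 members and fell in 0 in OPP mice, beside 17.1% of all genes higher, with a median of 0.26. In water mice 0 rose and 5 fell, with a median of -0.47, beside 8.74% of all genes called in water mice, 5.5% higher and 3.24% lower. Mvd, which makes isopentenyl diphosphate, had ratios of 1.01, 0.777 and 1.04 at 18 hours and 2.52, 1.6 and 2.19 at 1 week in OPP mice, a difference of 1.14 (SE 0.20, adjusted p 0.000489). In water mice Mvd had 0.987, 0.837 and 1.35 and 0.887, 0.694 and 0.975, and the OPP difference exceeded the water difference by 1.44 (SE 0.28, adjusted p 0.0364). That call was lost in 10 of 20 alternative fits, and Mvd was the 1 member of the list whose time difference differed between the drinks, beside 0.482% of all genes. Sqle, squalene epoxidase, was at 0.13 (SE 0.36, adjusted p 0.892) in OPP mice and -1.40 (SE 0.36, adjusted p 0.0229) in water mice, but the test of the difference gave an adjusted p of 0.225. Insig1 and Insig2, which hold the sterol sensor in the endoplasmic reticulum, rose with 1.22 (SE 0.19, adjusted p 0.000217) and 2.06 (SE 0.35, adjusted p 0.000459), and 1 other probe of Insig1 gave -0.02.

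Glucose and feeding genes rose in 7 of 18 members and fell in 1. G6pc, glucose-6-phosphatase, the last step of glucose release, was the largest rise of all named genes: its ratios were 0.229, 0.539 and 0.158 at 18 hours and 2.15, 2.23 and 3.75 at 1 week, a 9.72-fold rise with a difference of 3.28 (SE 0.54, adjusted p 0.000345). The early arrays were spread widely but all lay under the later ones. Pck1, the other control step of glucose production, was not called at -0.24 (SE 0.18, adjusted p 0.461). Pklr, pyruvate kinase of glycolysis, rose with 1.35 (SE 0.27, adjusted p 0.00182), its other probe giving 0.26. Ppp1r3b and Ppp1r3c, which bring protein phosphatase to glycogen, rose 3.01-fold and 3.02-fold (adjusted p 0.00232 and 0.00319), while Gys2, liver glycogen synthase, was the 1 that fell, at -0.59 (SE 0.18, adjusted p 0.0271). Fgf21, a hormone of fasting and amino acid stress, rose with 1.73 (SE 0.26, adjusted p 0.000156) and Igfbp2, an IGF carrier, with 1.42 (SE 0.24, adjusted p 0.000381).

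Methionine and one-carbon enzymes rose in 13 of 18 members and fell in 1. Sardh and Dmgdh, which strip methyl groups from sarcosine and dimethylglycine, had 1.57 (SE 0.11, adjusted p 6.94e-08) and 0.89 (SE 0.12, adjusted p 5.1e-05), and Aldh1l1, a folate enzyme, had 1.16 (SE 0.14, adjusted p 1.85e-05). Bhmt, which remakes methionine from betaine, had 0.76 (SE 0.10, adjusted p 6.41e-05) in OPP mice and -0.10 (SE 0.10, adjusted p 0.724) in water mice, differing by 0.86 (SE 0.15, adjusted p 0.0193). The call on that difference was lost in 6 of 20 alternative fits. Mat2b, a regulatory subunit of methionine adenosyltransferase, was the 1 that fell, at -0.48, with another probe at 0.19. Urea cycle and amino acid genes rose in 11 of 25, with Ass1, argininosuccinate synthase, at 1.16 (SE 0.27, adjusted p 0.005) and 0.53 on its other probe, and Hpd of tyrosine breakdown at 0.79 (SE 0.13, adjusted p 0.000459).

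Growth hormone and sex-biased liver genes rose in 9 of 21 members and fell in 1, or 42.9% and 4.76%, beside 17.1% and 3.07% of all genes. Ghr, the growth hormone receptor, had 0.82 (SE 0.14, adjusted p 0.000592) and Igf1, its main endocrine target, had 0.63 (SE 0.10, adjusted p 0.000191) with its other probe at 0.63. Hsd3b5, a male-specific steroid reductase of mouse liver, had ratios of 0.525, 0.249 and 0.25 at 18 hours and 1.36, 1.49 and 1.63 at 1 week, a difference of 2.22 (SE 0.28, adjusted p 3.03e-05). In water mice it had 0.515, 0.976 and 0.576 at 18 hours and 0.872, 0.869 and 0.453 at 1 week, and the drinks differed by 2.14 (SE 0.39, adjusted p 0.0317), a call lost in 7 of 20 alternative fits. Car3, a carbonic anhydrase abundant in male liver, rose with 2.85 (SE 0.27, adjusted p 2.13e-06) and Elovl3, a male-biased fatty acid elongase, with 2.28 (SE 0.42, adjusted p 0.000767). The sex-biased genes described here are male-biased or abundant in male liver, and the list was not split by the sex in which a gene is higher. The mice of the later group were a week older, and the part of age was not tested.

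**Figure D3:**
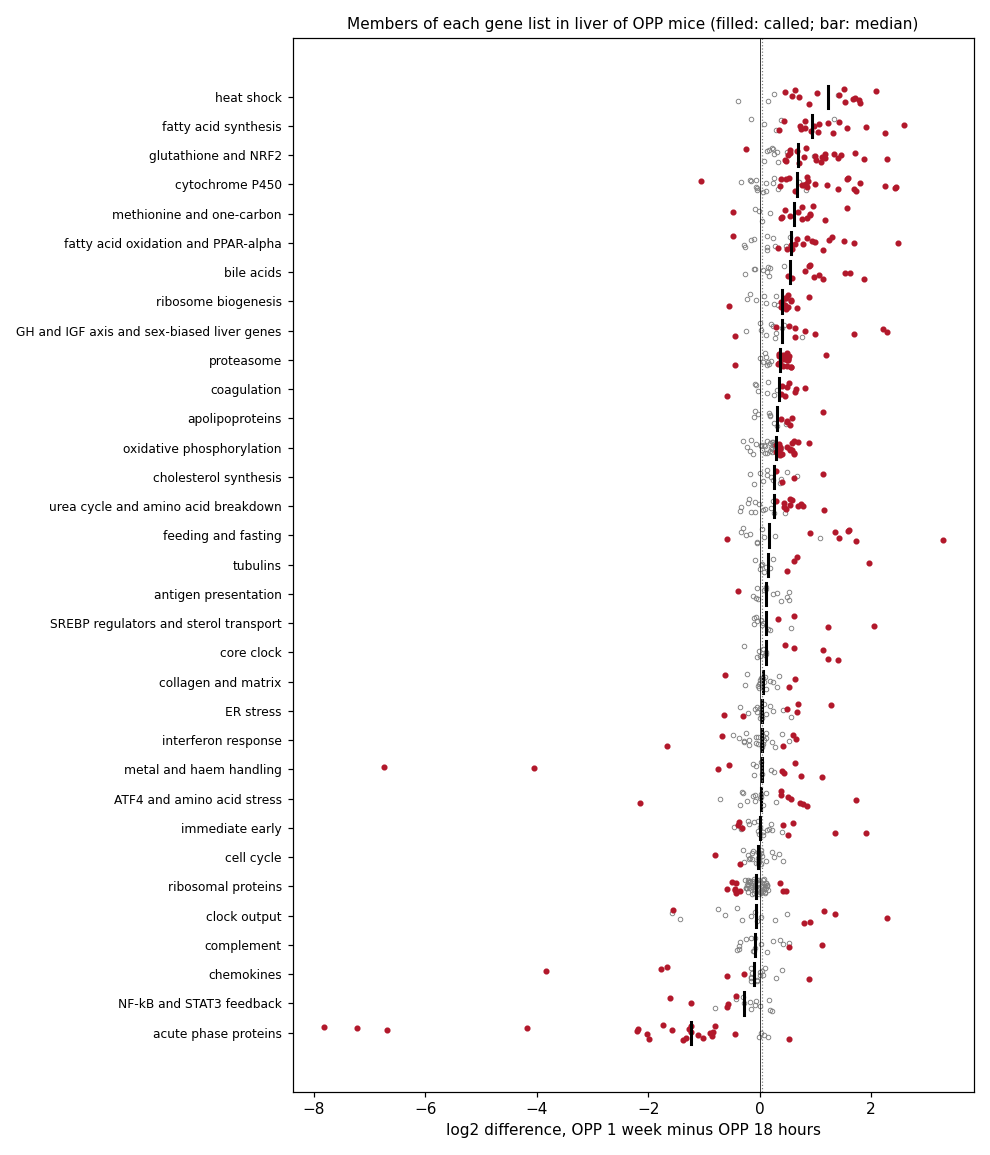
Log2 difference of OPP mice, 1 week minus 18 hours (horizontal axis), for each measured member of 33 gene lists (rows, ordered by median); filled points are called, open points are not, black bars are list medians and the dotted line is the median of all genes. Heat shock has the highest median, 1.22, and acute phase proteins the lowest, -1.24.

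Heat shock genes had the highest median of the 33 functional lists, 1.22, with 14 of 18 members higher and 0 lower. These chaperones and co-chaperones fold and rescue proteins under the control of the heat shock factor. Hsph1, a nucleotide exchange factor for Hsp70, had ratios of 0.517, 0.548 and 0.445 at 18 hours and 3.1, 1.23 and 2.58 at 1 week, a difference of 2.09 (SE 0.26, adjusted p 2.72e-05). Stip1, which links Hsp70 to Hsp90, had 0.596, 0.62 and 0.597 at 18 hours and 1.8, 1.51 and 1.86 at 1 week, a difference of 1.51 (SE 0.10, adjusted p 5.01e-08). Neither gene had overlapping groups. Chordc1, an Hsp90 co-chaperone, went from 0.643, 0.711 and 0.658 to 2.13, 1.59 and 2.12, a difference of 1.52 (SE 0.11, adjusted p 8.42e-08). Dnajb1, an Hsp40, had 1.79 (SE 0.22, adjusted p 2.78e-05), Bag3, which steers clients to autophagy, 1.79 (SE 0.27, adjusted p 0.000155), and Fkbp4, of steroid receptor complexes, 1.68 (SE 0.14, adjusted p 6.68e-07). Hspa8, the constitutive Hsp70, had 1.42 (SE 0.14, adjusted p 3.38e-06) and its other probes 1.19 each. Hsp90aa1, the inducible Hsp90, had 1.71 (SE 0.21, adjusted p 2.6e-05), but its other probes gave -0.11 and 0.85. Cirbp, an RNA-binding protein induced by mild cold, ran the opposite way: its ratios were 4.07, 4.74 and 4.75 at 18 hours and 0.741, 0.909 and 1.0 at 1 week, a difference of -2.36 (SE 0.18, adjusted p 1.92e-07).

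For Stip1 and Chordc1 the time difference was larger in OPP than in water mice, by 1.13 (SE 0.14, adjusted p 0.00331) and 1.04 (SE 0.15, adjusted p 0.00743), and both calls held in all 20 alternative fits. Stip1 in water mice had ratios of 0.721, 0.743 and 0.823 at 18 hours and 0.995, 1.0 and 0.968 at 1 week. The OPP arrays were thus lower than the water arrays at 18 hours and higher at 1 week. Bag3, Hsp90aa1 and Hsph1 had adjusted p values of 0.0835, 0.0515 and 0.106 for the same test and did not pass. In water mice 6 of 18 heat shock genes rose and 1 fell, with a median of 0.41. Beside these counts, 5.5% of all genes were higher and 3.24% lower in water mice. At 4 weeks the OPP arrays had list medians of 0.33 to 0.45 and the water arrays -0.20 to 0.12, beside 0.20 to 0.62 and -0.02 to 0.17 at 1 week.

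The promoter of Chordc1 is shown because it holds a run of heat shock elements and because the gene's time difference differed between the drinks. It is plus strand, RefSeq build GRCm38.p6, chr9:18292017-18292316, with capitals for each match, on either strand, to GAA, any 2 bases, TTC, any 2 bases and GAA.
Chordc1: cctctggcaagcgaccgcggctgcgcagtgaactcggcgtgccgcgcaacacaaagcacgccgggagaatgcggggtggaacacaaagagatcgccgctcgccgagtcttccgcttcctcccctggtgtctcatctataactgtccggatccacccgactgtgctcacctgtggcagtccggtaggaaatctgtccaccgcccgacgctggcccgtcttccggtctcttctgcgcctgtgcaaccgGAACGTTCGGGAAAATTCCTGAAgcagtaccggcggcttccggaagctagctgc
The 3 matches overlap one another at the start site. Of 18 heat shock members 14 had a window, and 4 of these held a match, namely Chordc1, Hspd1, Hspe1 and Hsph1, which is 28.6% beside 0.662% of all genes. The list was made of known heat shock genes, so this share describes the list and is no finding of these arrays. The windows of Stip1 and Fkbp4 held none.

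**Figure D4:**
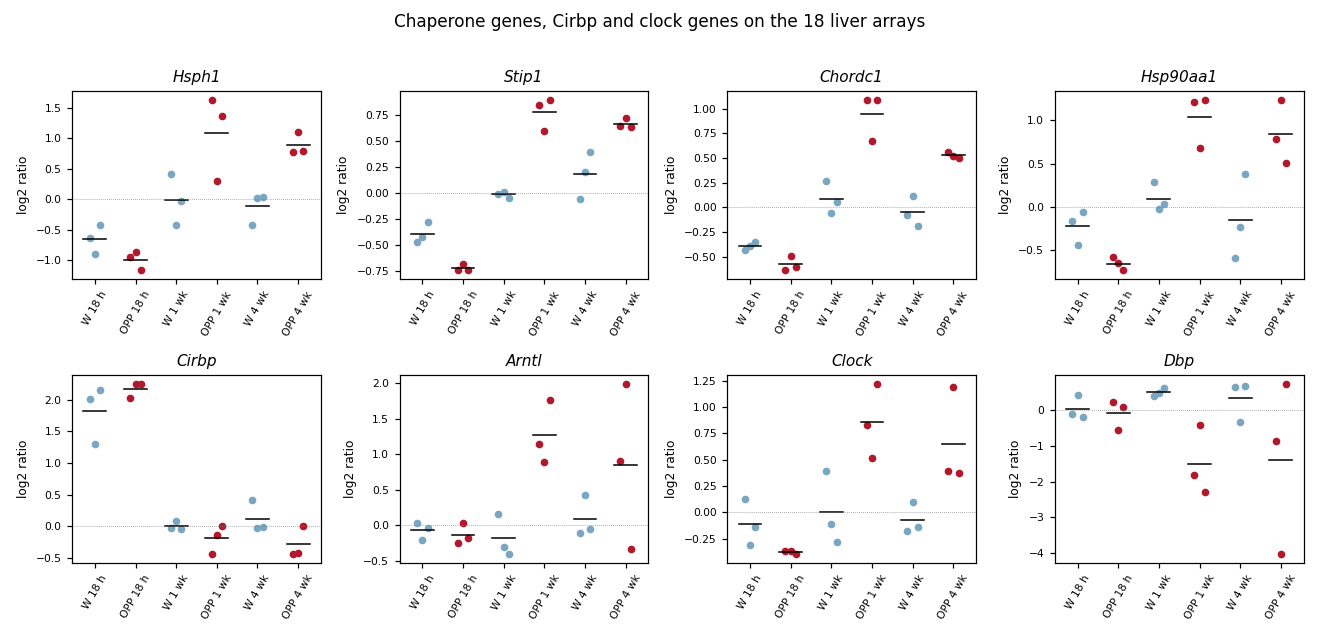
Log2 ratio to the liver median (vertical axis) of 4 chaperone genes, Cirbp and 3 clock genes on the 18 liver arrays by drink and time; W is water, points are arrays and bars are group means. The chaperone genes are lowest in OPP mice at 18 hours and highest in OPP mice at 1 week, while Cirbp is high at 18 hours with both drinks.

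Clock genes differed between the OPP times in a part of the list. Of 13 core clock genes 5 rose and 0 fell, the rises being 38.5% beside 17.1% of all genes, with a list median of 0.105. Arntl, the partner of Clock in the positive limb, had ratios of 0.841, 1.02 and 0.883 at 18 hours and 2.22, 1.86 and 3.39 at 1 week, a difference of 1.40 (SE 0.37, adjusted p 0.0115). Clock itself had 1.23 (SE 0.21, adjusted p 0.000393) on its most variable probe but 0.08 and 0.04 on the others, and Nr1d2, which represses Arntl, had 1.13 (SE 0.20, adjusted p 0.00064) on 1 probe and -0.55 on the other. Per2, a negative regulator, had 0.61 (SE 0.19, adjusted p 0.0348), a call lost in 7 of 14 alternative fits, and its other probe gave -0.06. Rora had 0.46 (SE 0.12, adjusted p 0.0121) on 1 probe and 0.12 on the other. Dbp, an output factor of the clock, was not called at -1.43 (SE 0.75, adjusted p 0.243), with ratios of 1.17, 0.68 and 1.06 at 18 hours and 0.285, 0.749 and 0.204 at 1 week. Among 18 output genes 5 rose and 1 fell, or 27.8% and 5.56%, beside 17.1% and 3.07% of all genes. The one that fell was Upp2, uridine phosphorylase, at -1.55 (SE 0.49, adjusted p 0.0342) with other probes at -1.43 and -1.49. The Upp2 call was lost in 7 of 14 alternative fits, the mean over its probes among them. Tsc22d3, a glucocorticoid target, had 1.15 (SE 0.24, adjusted p 0.00242), with another probe at -0.08. In water mice Arntl had -0.11 (SE 0.37, adjusted p 0.927) and Clock 0.11 (SE 0.21, adjusted p 0.856), and the tests of the difference between the drinks gave adjusted p values of 0.245 and 0.115. The hour at which tissue was taken was not given, and its part was not tested.

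Genes of the endoplasmic reticulum stress response rose in 4 of 21 and fell in 2 in OPP mice, which is 19% and 9.52% beside 17.1% and 3.07% of all genes, with a median of 0.04. In water mice 2 rose and 8 fell, beside 3.24% of all genes lower, and 2 members passed the test of the difference between the drinks. Hspa5, the chaperone BiP, had ratios of 0.904, 1.13 and 0.955 at 18 hours and 1.39, 1.1 and 1.53 at 1 week in OPP mice, a difference of 0.42 (SE 0.17, adjusted p 0.101). In water mice it had 1.48, 1.3 and 1.44 and 0.669, 0.727 and 0.542, a difference of -1.13 (SE 0.17, adjusted p 0.000339). The test of the drinks gave 1.55 (SE 0.24, adjusted p 0.00893), which held in all 20 alternative fits. Hspa5 thus fell in water mice and was not called in OPP mice. Syvn1, the ubiquitin ligase HRD1, had 0.69 in OPP and -0.68 in water mice, a difference of 1.37 (SE 0.25, adjusted p 0.0311). Selenos, of the same degradation complex, rose in OPP mice with 1.28 (SE 0.12, adjusted p 1.95e-06), its other probe giving 0.46. Among ATF4 and amino acid stress genes 8 of 23 rose and 1 fell. Atf4 itself had 0.77 (SE 0.12, adjusted p 0.000193), and the drinks differed by 1.05 (SE 0.17, adjusted p 0.0143). The 1 that fell was Chac1, which breaks down glutathione, at -2.14 (SE 0.36, adjusted p 0.000392). Aars and Sars, which charge transfer RNA with alanine and serine, had 0.85 and 0.51, and the second probe of each was lower, at 0.17 and 0.13.

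Genes of ribosome assembly and protein breakdown were higher at 1 week in OPP mice. Ribosome biogenesis genes rose in 13 of 22 and fell in 1, beside 17.1% of all genes higher. In water mice 0 rose and 1 fell, beside 5.5% higher, but 1 member alone, Rrp12, passed the test of the difference between the drinks. Rrp12, which exports ribosomal subunits, had ratios of 0.77, 0.732 and 0.737 at 18 hours and 1.3, 1.21 and 1.66 at 1 week in OPP mice and 1.01, 1.1 and 0.947 and 1.02, 0.929 and 0.839 in water mice. Its OPP difference of 0.88 (SE 0.10, adjusted p 1.65e-05) exceeded the water difference by 1.02 (SE 0.15, adjusted p 0.00663). Nop56, a core protein of box C/D particles, had 0.56 (SE 0.10, adjusted p 0.000567). Of 65 cytosolic ribosomal proteins 3 rose and 7 fell in OPP mice, the falls being 10.8% beside 3.07% of all genes, with Rpl30 at -0.59 (SE 0.12, adjusted p 0.00191). In water mice 0 of them rose and 19 fell, beside 3.24% of all genes lower. Their list median was -0.233 in water mice and -0.065 in OPP mice. Proteasome subunits rose in 19 of 29 and fell in 1, with Psmd2 of the regulatory particle at 1.18 (SE 0.12, adjusted p 4.9e-06) and 0.44 on its other probe. In water mice 2 proteasome genes rose and 1 fell, beside 5.5% of all genes higher and 3.24% lower. Of the 29, 0 passed the test of the difference between the drinks in either direction, beside 0.482% of all genes. With so low a share this count says nothing particular to the proteasome. Subunits of oxidative phosphorylation rose in 23 of 49 and fell in 0, with Uqcrc2 of complex III at 0.62 (SE 0.10, adjusted p 0.000191). These differences were small, the list medians being 0.40, 0.36 and 0.30 for ribosome biogenesis, proteasome and oxidative phosphorylation.

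Tubb4b, a beta tubulin of microtubules, was the 1 tubulin whose time difference differed between the drinks. Its ratios were 0.839, 0.798 and 0.809 at 18 hours and 3.05, 3.01 and 3.44 at 1 week in OPP mice and 1.05, 0.809 and 1.13 and 0.886, 0.833 and 0.882 in water mice. The OPP arrays at 1 week stood above all of these, with an OPP difference of 1.95 (SE 0.20, adjusted p 3.01e-06) and an excess over water of 2.14 (SE 0.28, adjusted p 0.00331). That call was lost only under quantile normalisation among 20 alternative fits, where the adjusted p was 0.0577. Of 12 tubulins 4 rose in OPP mice and 0 fell, the others being Tubg1 at 0.67, Tuba4a at 0.48 and Tubb5 at 0.61.

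Immediate early genes were called in both directions, and their list median was 0.01. Of 25 members 5 rose and 3 fell, which is 20% and 12% beside 17.1% and 3.07% of all genes, led by Dusp6 and Dusp1, phosphatases that switch off MAP kinases, at 1.92 (SE 0.24, adjusted p 2.49e-05) and 1.35 (SE 0.13, adjusted p 2.76e-06). The other probe of Dusp6 gave 0.40. Klf6 fell with -0.37 (SE 0.10, adjusted p 0.0129) in OPP mice. Of 27 interferon genes 3 rose and 2 fell, or 11.1% and 7.41%, the falls being Psmb8, an immunoproteasome subunit, at -0.68 and Cxcl9. Of 27 cell cycle genes 0 rose and 2 fell, Mcm5 of the replicative helicase at -0.81 (SE 0.14, adjusted p 0.000541) and Birc5, survivin, at -0.35 (SE 0.10, adjusted p 0.0188), with other probes of Birc5 at 0.04 and -0.30. The Birc5 call was lost in 6 of 14 alternative fits. Of 19 matrix genes 2 rose and 1 fell, the latter being Sparc at -0.61 (SE 0.14, adjusted p 0.00345).

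Markers of liver cells and of neighbouring tissue were read beside these results. Hepatocyte markers rose in 4 of 11, or 36.4% beside 17.1% of all genes. Ahsg, fetuin A, was at 0.67 (SE 0.11, adjusted p 0.000259), and Alb, albumin, was at 0.31 (SE 0.17, adjusted p 0.293). Ratios keep no level, so they cannot show by themselves that an array is liver. Cholangiocyte markers gave 0 calls of 6. Pancreatic enzymes were uneven between single arrays: Clps, colipase, had ratios of 343, 0.946 and 0.959 at 18 hours and 0.91, 1.05 and 9.43 at 1 week, and of 11 acinar markers 1 was called, Cela1 at 1.29 (SE 0.29, adjusted p 0.00391). Of 14 endothelial and stellate markers 3 rose and 1 fell, or 21.4% and 7.14%, beside 17.1% and 3.07% of all genes. Reln was at 1.16 (SE 0.19, adjusted p 0.000255) and Lyve1 at -0.64 (SE 0.18, adjusted p 0.0194), the latter call being lost in 5 of 14 alternative fits.

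The same comparison in water mice shares no array with the OPP comparison and was read beside it. In water mice 1707 probes were called, 7.12%, of which 1070 (4.46%) were higher and 637 (2.66%) lower. Of these, 1215 were called in the same direction in OPP mice, which is 71.2% of the water calls and 29.3% of the OPP calls, and 11 were called in opposite directions. Across the 23982 probes the 2 time differences had a Pearson correlation of 0.582, given as a description, since probes are not independent. The largest acute phase falls were called with both drinks: Saa3 had -7.48 in water and -7.83 in OPP mice, and Saa2 had -6.27 and -7.22. Lcn2 had -5.86 in water and -6.69 in OPP mice, and Orm2 had -2.44 and -2.18. No acute phase member passed the test of the difference between the drinks, beside 0.482% of all genes. With so low a share this count does not show that the falls were equal. The list median was -1.49 in water mice. Rises such as Cyp2c37 (2.07 in water), Gsta3 (1.14) and Clec4f (1.73) were also called with both drinks.

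The time difference itself differed between OPP and water in 94 probes, 0.392% of those tested, 92 (0.384%) with a higher and 2 (0.00834%) with a lower difference in OPP mice. At an unadjusted p under 0.05 there were 2677. In 66 of the 94 the OPP difference was above 0 and the water difference below 0, and in 24 both were above 0. The 94 fell to 13 without replicate 3 of the OPP group at 1 week and grew to 283 without replicate 1 of that group. Arrays of the other groups mattered too. The count was 15 without water replicate 1 at 18 hours, 15 without OPP replicate 2 at 18 hours and 18 without water replicate 3 at 1 week. It was 136 without water replicate 1 at 1 week and 99 without OPP replicate 2 at 1 week. The 6 genes with the smallest p were Stip1, Tubb4b and Rrp12, described above, and Caprin1, Alg2 and Elovl1. Caprin1, an RNA-binding protein of stress granules, had ratios of 0.724, 0.74 and 0.727 at 18 hours and 1.25, 1.24 and 1.68 at 1 week in OPP mice and 1.01, 0.878 and 0.989 and 0.835, 0.817 and 0.85 in water mice. Its drinks differed by 1.11 (SE 0.15, adjusted p 0.00575), and its other probe rose in OPP mice by 1.06. Alg2, which builds the sugar chain for N-glycosylation, differed by 1.12 (SE 0.16, adjusted p 0.00575), and Elovl1, which makes very long chain fatty acids, by 0.98 (SE 0.14, adjusted p 0.00663). Genes called in OPP and not in water mice, such as G6pc, Fasn and Arntl, had adjusted p values of 0.201, 0.397 and 0.245 in this test and are not shown to differ between the drinks.

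**Figure D5:**
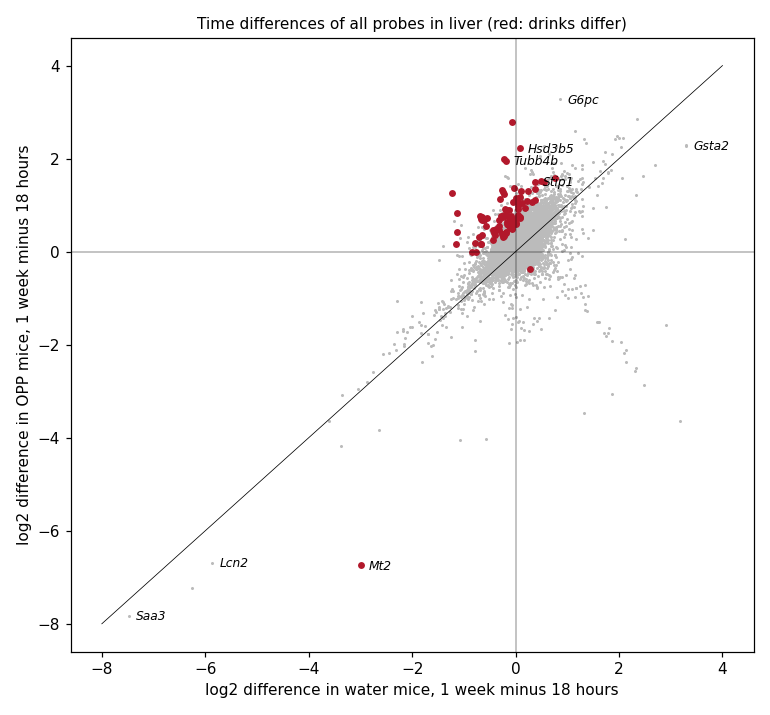
Log2 time difference in water mice (horizontal axis) and in OPP mice (vertical axis), each 1 week minus 18 hours, for 23982 liver probes; the diagonal marks equal differences and the 94 red points are probes whose differences differ between the drinks. Saa3 and Lcn2 lie near the diagonal, Mt2 lies below it and 92 of the red points lie above it.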

How the data were processed

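Total RNA of liver was labelled with biotin and hybridised to Illumina BeadChip arrays, per the labels' protocols. Each deposited ratio divides a probe's linear signal by that probe's median on all 18 liver arrays, as tested on the values; the authors' background correction and scaling are not given in the sources used here. A deposited table of unnormalised signals was not used, because its 72 columns match no sample label.

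Ratios were taken to log2 without offset, filter or scaling and modelled by limma 3.58.1 under R 4.3.3 (lmFit, then contrasts.fit and eBayes) on the 18 liver arrays with a mean per group, which left 12 residual degrees of freedom. Calls needed an adjusted p (Benjamini-Hochberg, 23982 probes) under 0.05. The difference between drinks was tested as an interaction contrast. The script was tested on simulated data. The number of arrays limits the precision.

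The GEO platform annotation, updated through RefSeq, gave 1 symbol to 19344 probes and did not list 4638; 1 ribosomal RNA probe was left unnamed. In lists, gene counts and genes named after their values were seen, a gene stands on its probe of highest SD over the liver arrays. Among the 15 largest rises and falls it stands on its passing probe of largest difference. The 6 genes of smallest p between drinks stand on the probe with that p. These choices favour larger differences, and other probes are given where they disagree. The members and the 43 gene lists, 10 of them cell markers, were chosen with earlier results of these data known. Named genes were the 15 largest called rises and falls without overlap, the 4 members of smallest p in each list and the 6 of smallest p between drinks; 54 more were named after their values were seen. Promoter windows were those of RefSeq, build GRCm38.p6, matched by gene symbol. Same-numbered replicates did not deviate together, so no pairing was used.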

Additional observations from a re-analysis of the deposited data

Results flagged for a closer look

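For 19 named genes the time difference in OPP mice differed from that in water mice at an adjusted p under 0.05, which is what marked them. Stip1, Caprin1, Alg2, Elovl1, Rrp12, Chordc1 and Hspa5, by 1.13, 1.11, 1.12, 0.98, 1.02, 1.04 and 1.55, kept the call in all 20 alternative fits. Tubb4b, by 2.14, lost it in 1, and Atf4, by 1.05, in 3. Bhmt and Syvn1, by 0.86 and 1.37, each lost it in 6, Hsd3b5, by 2.14, in 7 and Mvd, by 1.44, in 10. Wars, which charges transfer RNA with tryptophan, differed by 0.57 (adjusted p 0.0317) and lost the call in 11, and Dusp1, by 0.97, in 12. Hacl1, a peroxisomal lyase, and Agpat2, which makes phosphatidic acid, differed by 1.47 and 0.88 (adjusted p 0.0487 each) and lost it in 15 and 14. The difference was lower in OPP mice for Mt2, by -3.75, and for Klf6, by -0.65, which lost the call in 9 and 14 fits. The other probe of Hacl1 moved by 0.01 in OPP mice. The groups hold 3 arrays, too few to test single arrays as outliers.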

How the results depend on the processing

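The planned fit on background-corrected unnormalised signals was not run, because the columns could not be mapped to samples. The replicate number as a block gave 4009 calls in OPP mice, 1603 in water mice and 45 between the drinks. Same-numbered OPP arrays had correlations of deviations of -0.085, 0.060 and -0.115, and same-numbered water arrays -0.016, 0.098 and 0.050, so the numbers do not pair the samples. Calls in OPP mice numbered 2601 under quantile normalisation (1847 higher, 754 lower), 5257 with array weights and 4046 with arrays centred on their median (3159 higher, 887 lower), and 2549 (without replicate 3 of the OPP group at 1 week) to 4732 with an array left out. Calls in water mice were 1131 with the mean over the probes of a gene and 860 (without replicate 3 of the 18 hours group) to 1404 with an array left out, being 1092 without replicate 1 of the 1 week group. Calls between the drinks were 47 in the compared arrays only, 163 with array weights, 38 under quantile normalisation, 57 with the mean over the probes of a gene, and 13 to 283 with an array left out. Under quantile normalisation the median difference of a list in OPP mice became -1.01 for acute phase proteins, 0.18 for coagulation, -0.023 for SREBP regulators and sterol transport, 0.32 for fatty acid oxidation and PPAR-alpha, 0.34 for bile acids, 0.39 for cytochrome P450, 0.46 for glutathione and NRF2, 0.41 for methionine and one-carbon, 0.10 for urea cycle and amino acid breakdown, 0.18 for GH and IGF axis and sex-biased liver genes, 0.86 for heat shock, -0.028 for ATF4 and amino acid stress, -0.037 for immediate early, -0.087 for cell cycle, 0.19 for oxidative phosphorylation, 0.25 for proteasome, 0.30 for ribosome biogenesis, 0.18 for markers of hepatocytes and -0.073 for markers of erythroid cells. Over the more variable probes the median difference of a list in OPP mice became 0.25 for SREBP regulators and sterol transport, 0.70 for bile acids, 1.40 for heat shock, 0.28 for ATF4 and amino acid stress, 0.24 for tubulins, 0.13 for immediate early, -0.15 for chemokines, -0.18 for ribosomal proteins, 0.056 for markers of B and plasma cells, 0.16 for markers of endothelial and stellate cells and -0.65 for markers of adipocytes. With the mean over the probes of a gene the median difference of a list in OPP mice became -0.17 for NF-kB and STAT3 feedback, 0.56 for glutathione and NRF2, 0.41 for methionine and one-carbon, 0.90 for heat shock and 0.31 for ribosome biogenesis. With arrays centred on their median the median difference of a list in OPP mice became -0.019 for ATF4 and amino acid stress and -0.027 for immediate early. With an array left out the list medians ran from 0.46 to 0.73 for fatty acid oxidation and PPAR-alpha, 0.21 to 0.47 for apolipoproteins, 0.49 to 0.72 for methionine and one-carbon, 0.21 to 0.40 for urea cycle and amino acid breakdown, 0.27 to 0.46 for GH and IGF axis and sex-biased liver genes, 1.04 to 1.35 for heat shock, -0.024 to 0.092 for immediate early, -0.12 to -0.026 for chemokines, -0.20 to -0.12 for markers of neutrophils, 0.033 to 0.13 for markers of endothelial and stellate cells and -0.097 to 0.088 for markers of cholangiocytes. The sign turned for 9 genes not called in OPP mice, C1s1 (0.12 with the mean of its probes), Klf1 (-0.17 to 0.069 with an array left out), Rhag (0.0764 with array weights, 0.053 with the mean of its probes, -0.20 to 0.0532 with an array left out), Cldn4 (-0.0018 to 0.14 with an array left out), Krt7 (-0.17 to 0.0441 with an array left out), Clps (-3.12 to 1.13 with an array left out), Crp (-0.0911 to 0.0569 with an array left out), Cyp7a1 (-0.57 to 0.15 with an array left out) and Sqle (-0.16 with array weights, -0.11 to 0.42 with an array left out). The causes of these changes were not tested. Of 204 named genes called in OPP mice 152 kept the call in all alternative fits and 52 lost it in some, and 0 reversed.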
